A study of Mus musculus with 6 samples.

Results

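The 32 genes described here act in S phase, when DNA is copied, or in mitosis, when the copies are parted, and together they mark cycling cells. They were taken from the count table by symbol, through its Entrez gene identifiers. All 32 were found among its 27179 rows, 16 of S phase and 16 of mitosis, and all 32 were among the 14842 genes that passed the filter on low counts and were tested. RNA was taken from epithelial cells of the E16.5 embryonic mouse lung, sorted for the surface protein EpCAM. The 3 Grhl2_cKO libraries (replicates 1, 5 and 10) had the genotype Shh-Cre;Grhl2f/-, with 1 floxed and 1 null allele of Grhl2, the gene of grainyhead-like 2, a transcription factor of epithelia. The 3 control libraries (replicates 1, 3 and 7) had the genotype Shh-Cre;Grhl2f/+, with 1 floxed and 1 intact allele. Both genotypes carried Shh-Cre, a Cre recombinase under control of the Sonic hedgehog gene, which is active in the embryonic lung epithelium, so a control cell where Cre has acted still holds 1 allele. Each genotype had 2 male libraries and 1 female library, and since the labels leave unsaid whether 1 embryo gave 1 library, p-values reflect only how far these libraries spread.

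A dividing cell passes through a fixed order of gene activity. In G1, D-type cyclins with their kinases release E2F factors from the retinoblastoma protein, and E2F switches on the genes for the replication machinery. Later, in G2, the MuvB complex with B-MYB and FOXM1 switches on the mitotic genes, many of which carry CCAAT boxes bound by NF-Y and a CHR (cell cycle genes homology region) element near the start of transcription. At E16.5 the branching lung epithelium still grows while its distal cells begin to take on alveolar fates.

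Many promoters of the listed genes held letters of these elements. RefSeq promoter windows of 300 bases (build GRCm38.p6, from 250 bases before to 50 bases after the start) were at hand for 27 of the 32 genes in 29 windows, since Mcm7 and Uhrf1 have more than 1 start. Each window was searched on both strands for CCAAT, for the CHR words TTTGAA and TTCGAA, and for the E2F words TTTCCCGC, TTTCGCGC, TTTGGCGC and TTTGCCGC. A CHR word was found in 10 of 13 windows of mitosis genes (76.9%) and in 3 of 16 of S phase genes (18.8%), against 19.2% of all 32851 windows in the table and 13.8% of those of tested genes. E2F words were found in 1 mitosis window (7.69%) and 6 S phase windows (37.5%), against 2.26% of all windows and 3.82% of those of tested genes. CCAAT was found in 12 mitosis windows (92.3%) and 12 S phase windows (75%), against 37.4% of all windows. In 1 of the 29 windows matches of different motifs overlapped each other. A match of letters is a description and does not show that a factor binds there.

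6 windows of replication and mitotic genes are shown as examples, each printed 5′ to 3′ along the strand of its gene. Capitals mark matches of any of the 3 motifs on either strand, and where E2F words on opposite strands overlap the capitals run together. The helicase genes Mcm5 (chr8:75109259-75109558, plus strand) and Mcm6 (chr1:128359656-128359955, minus strand) hold E2F words and CCAAT boxes and no CHR word. The cyclin genes Ccnb1 (chr13:100786437-100786736, minus strand) and Ccnb2 (chr9:70421505-70421804, minus strand) both hold CCAAT boxes. Of this pair Ccnb2 alone holds the CHR words searched for, at positions 5 and -167 from the start. Other forms of the CHR were not searched for, so the Ccnb1 window may still hold one. Cdk1 (chr10:69352863-69353162, minus strand) holds all 3 motifs, and Top2a (chr11:99024140-99024439, minus strand) holds 6 CCAAT boxes and 4 CHR words.
Mcm5: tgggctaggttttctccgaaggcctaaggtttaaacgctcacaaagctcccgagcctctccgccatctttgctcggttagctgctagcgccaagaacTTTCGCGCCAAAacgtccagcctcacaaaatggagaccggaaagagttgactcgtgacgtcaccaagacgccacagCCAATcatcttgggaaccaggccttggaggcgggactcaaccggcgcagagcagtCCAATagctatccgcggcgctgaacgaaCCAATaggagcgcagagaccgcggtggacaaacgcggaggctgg
Mcm6: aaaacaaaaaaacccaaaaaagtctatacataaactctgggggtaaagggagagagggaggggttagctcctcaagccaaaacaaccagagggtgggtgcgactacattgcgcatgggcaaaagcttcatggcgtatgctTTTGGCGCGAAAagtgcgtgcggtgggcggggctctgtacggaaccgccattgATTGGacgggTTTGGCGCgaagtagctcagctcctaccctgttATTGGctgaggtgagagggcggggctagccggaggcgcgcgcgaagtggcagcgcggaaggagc
Ccnb1: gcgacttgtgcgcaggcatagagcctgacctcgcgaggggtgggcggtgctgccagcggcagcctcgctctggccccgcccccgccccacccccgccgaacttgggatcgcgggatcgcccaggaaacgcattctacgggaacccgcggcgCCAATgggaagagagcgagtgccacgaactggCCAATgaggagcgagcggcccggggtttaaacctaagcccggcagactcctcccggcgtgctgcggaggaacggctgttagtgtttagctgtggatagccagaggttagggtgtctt
Ccnb2: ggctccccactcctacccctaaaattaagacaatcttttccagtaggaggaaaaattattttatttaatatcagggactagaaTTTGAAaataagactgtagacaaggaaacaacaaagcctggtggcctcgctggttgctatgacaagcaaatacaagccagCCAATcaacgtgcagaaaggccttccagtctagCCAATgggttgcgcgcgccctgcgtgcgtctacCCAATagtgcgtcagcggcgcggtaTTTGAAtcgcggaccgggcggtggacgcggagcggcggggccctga
Cdk1: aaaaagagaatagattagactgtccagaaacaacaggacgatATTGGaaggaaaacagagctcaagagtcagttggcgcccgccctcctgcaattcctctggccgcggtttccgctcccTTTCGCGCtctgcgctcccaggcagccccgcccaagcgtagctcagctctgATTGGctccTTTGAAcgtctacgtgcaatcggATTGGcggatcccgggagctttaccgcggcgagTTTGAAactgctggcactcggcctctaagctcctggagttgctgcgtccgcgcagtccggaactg
Top2a: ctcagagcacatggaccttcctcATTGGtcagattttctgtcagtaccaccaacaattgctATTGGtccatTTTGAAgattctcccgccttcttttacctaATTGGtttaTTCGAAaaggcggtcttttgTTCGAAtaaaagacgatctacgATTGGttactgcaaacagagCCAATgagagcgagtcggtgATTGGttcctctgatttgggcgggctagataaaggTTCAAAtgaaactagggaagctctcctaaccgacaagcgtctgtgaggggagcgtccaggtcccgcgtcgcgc

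The libraries held 15440843 to 17228762 gene counts in Grhl2_cKO and 13472216 to 16386541 in controls. Values below are CPM, a gene's counts set against the library's total with totals adjusted by the TMM method. Grhl2 itself stood at 105, 109 and 115 CPM in Grhl2_cKO replicates 1, 5 and 10, against 149, 148 and 146 CPM in control replicates 1, 3 and 7 (log2 fold change -0.43 ± 0.05 SE, edgeR adjusted p = 0.00204). With the floxed exons unnamed in the labels, reads of exons that remain may be counted. The share of cells where Cre had acted is not known from these data, and the source of the remaining Grhl2 counts was not tested. The 8 epithelial markers summed to 14852 to 17642 CPM in Grhl2_cKO and 15586 to 16854 CPM in controls, most of it Sftpc, a surfactant protein gene, at 12594 to 15449 CPM in Grhl2_cKO and 12791 to 14309 CPM in controls. Epcam, the gene of the sorted protein, fell to 335, 346 and 403 CPM in Grhl2_cKO, against 559, 544 and 501 CPM in controls (-0.56 ± 0.08 SE on the log2 scale, edgeR adjusted p = 0.00527), and 15 of 15 alternatives called it. It was the only one of the 8 called, and 4 of 8 were lower at an unadjusted p under 0.05, beside 1080 of the 14842 genes tested. Krt8, a keratin gene, and Cdh1, which encodes E-cadherin, did not pass (log2 fold changes -0.48 and -0.27, edgeR adjusted p = 0.0843 and 0.239). Krt18, another keratin gene, did not pass either (-0.37, edgeR adjusted p = 0.317). The other markers, Nkx2-1, Sftpc, Sox9 and Foxa2, had log2 fold changes of 0.04, 0.09, 0.01 and 0.07, so 4 of 8 lay above 0. For 3 of the 8, Epcam, Krt8 and Cdh1, each Grhl2_cKO library lay below each control, beside 9.89% of all genes tested. The part of these marker differences in the levels of the cell cycle genes was not tested. Markers of cells that the sort should remove were present. The collagen genes Col1a1, Col1a2 and Col3a1, made by mesenchymal cells, ranked at percentiles 92.7, 90.3 and 94.2 of tested genes in CPM per kilobase. The other mesenchymal markers, Pdgfra, Tbx4 and Dcn, ranked lower, at percentiles 31.2, 44.6 and 54.9. In Grhl2_cKO replicate 1, Col3a1 had 640.0 and Col1a1 486 CPM, beside 335 CPM of Epcam. CPM is not adjusted for gene length, which was 5564 and 4709 bases for these collagen genes and 2061 for Epcam. In CPM per kilobase over the 6 libraries, Epcam ranked above them, at percentile 98.7. Summed over each list, heart muscle markers (6 genes) stood at 18.5 to 201 CPM in Grhl2_cKO and 20.2 to 39.7 CPM in controls, and mesenchymal markers (6 genes) at 783 to 1649 CPM in Grhl2_cKO and 808 to 1327 CPM in controls. Endothelial markers (6 genes) stood at 155 to 172 CPM in Grhl2_cKO and 117 to 179.9 CPM in controls, and erythroid markers (6 genes) at 19.9 to 57.9 CPM in Grhl2_cKO and 20.7 to 57.5 CPM in controls. Immune markers (7 genes) stood at 4.94 to 10.2 CPM in Grhl2_cKO and 3.87 to 7.92 CPM in controls. Of these 31 markers of other cell types 24 were tested and none was called between genotypes by edgeR. At an unadjusted p under 0.05 there was 1, beside 13.3% of all genes tested. Nppa, a heart muscle marker, was at 0 in control replicate 1. The highest heart muscle and mesenchymal sums both belonged to Grhl2_cKO replicate 1.

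The cell cycle genes did not differ detectably between the genotypes. None of the 32 was called lower or higher in Grhl2_cKO (quasi-likelihood test of edgeR, adjusted over all genes tested by the Benjamini-Hochberg method, threshold 0.05), and their lowest adjusted p was 0.41. Among all genes tested 533 were called (3.59%), 353 lower (2.38%) and 180 higher (1.21%), so 0 of 32 lies near the background share and is no result about these genes by itself. At an unadjusted p under 0.05 there were also 0 of 32, against 13.3% of all genes tested. DESeq2 and limma-voom called 0 of 32 as well. In sorted bulk cells, fewer cycling cells and less RNA per cycling cell cannot be told apart.

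The intervals were narrow. For 31 of the 32 genes the 95% interval of the fold change lay within a 1.5-fold change in either direction, the exception being the cyclin gene Ccne2, whose log2 interval ran from -0.60 to 0.12. Over all genes tested 73.8% of intervals lay within that bound, and 96.1% of the 8295 tested genes whose mean CPM fell in the range of the listed genes. Log2 fold changes (Grhl2_cKO over control) ran from -0.24 for Ccne2 to 0.15 for Ccnb1, and 31 of 32 lay within 0.2 of 0, as for 75.6% of all genes tested and 90% of those in the same CPM range.

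The phases leaned to opposite sides of 0. Among the S phase genes 13 of 16 lay below 0 on the log2 scale (median -0.10, or 93.6% of control), while all 16 mitosis genes lay at or above 0, with a median of 0.08 (106% of control) and Ccnb2 at 0.00, just below 0 under total-count scaling. The median over all genes tested was 99.7% of control, with 7639 genes below 0 and 7203 above. These medians are descriptions of lists, and no gene behind them passed the test. They moved with single libraries: the mitosis median was 0.14 without Grhl2_cKO replicate 10, 0.02 when Grhl2_cKO replicate 5 was left out and 0.03 when control replicate 1 was, and the S phase median was -0.05 without Grhl2_cKO replicate 1 and -0.06 without control replicate 3. The groups' CPM did not overlap for 2 of the 32 genes, Ccnb1 and Tyms, both higher in Grhl2_cKO, against 8.17% of all genes tested in that direction, and for none in the lower direction, against 9.89%.

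**Figure D1:**
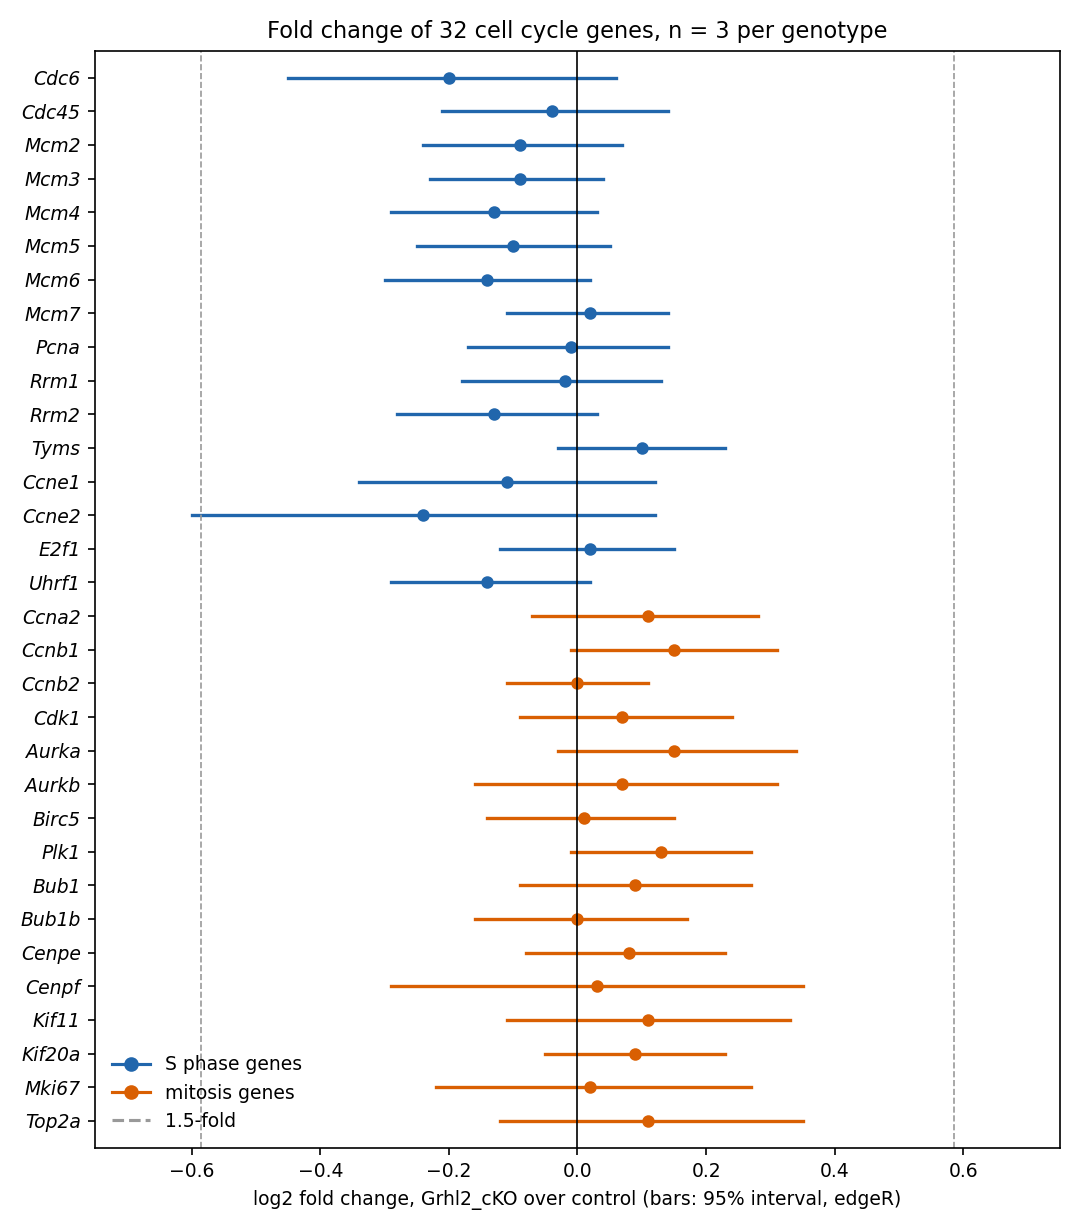
Log2 fold change of each of the 32 genes, Grhl2_cKO over control, with its 95% interval from the edgeR fit (n = 3 libraries per genotype) and dashed lines at a 1.5-fold change. S phase genes, above, lie mostly left of 0 and mitosis genes, below, at or right of 0, and each interval crosses 0.

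Of 8 genes that load and form the replicative helicase, 7 had log2 fold changes below 0 and none passed the test. Cdc6, which loads the replicative helicase onto origins, stood at 30.5, 33.4 and 27.9 CPM in Grhl2_cKO replicates 1, 5 and 10, against 29.1, 38.4 and 37.4 CPM in control replicates 1, 3 and 7. Its groups overlapped, with control replicate 1 inside the Grhl2_cKO range (log2 fold change -0.20 ± 0.11 SE, edgeR adjusted p = 0.566). This adjusted p fell to 0.152 without that library, the lowest of any of the 32 genes in 15 alternative fits. Mcm2, a subunit of the helicase, had 175, 190.4 and 199 CPM in Grhl2_cKO, against 184, 211 and 203 CPM in controls (log2 fold change -0.09 ± 0.07 SE, edgeR adjusted p = 0.76). Mcm6 was the most abundant subunit per length, at 117 CPM per kilobase of the deposited gene length (mean of 6 libraries), and had 302, 319.9 and 345 CPM in Grhl2_cKO, against 336, 378 and 349 CPM in controls (log2 fold change -0.14 ± 0.07 SE, edgeR adjusted p = 0.503). In both genes Grhl2_cKO replicate 1 was the lowest library and control replicate 3 the highest. Mcm4 had 208, 218 and 236 CPM in Grhl2_cKO, against 223, 260.3 and 241 CPM in controls (log2 fold change -0.13 ± 0.07 SE, edgeR adjusted p = 0.557). Mcm3, Mcm5 and Mcm7 had log2 fold changes of -0.09, -0.10 and 0.02. Cdc45, which activates the loaded helicase, had 52.1, 57.3 and 60.4 CPM in Grhl2_cKO, against 53.9, 61.9 and 58.5 CPM in controls, and its groups overlapped. Mcm7 shares 34.2% of the 50-base words of its longest annotated transcript with transcripts of other genes, among them the pseudogene Gm5487 and its neighbour Ap4m1, so its counts are less certain. The same holds, with 10.9% to 18.9% of words shared, for Uhrf1, Ccne2, Ccna2, Tyms and Plk1.

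Genes of the clamp and the nucleotide supply lay on both sides of 0. Pcna, the sliding clamp of the DNA polymerases, had 123, 128 and 144 CPM in Grhl2_cKO, against 130.1, 139 and 129 CPM in controls (log2 fold change -0.01 ± 0.07 SE, edgeR adjusted p = 0.985). Of its words 31.8% also occur in a pseudogene, Pcna-ps2. Rrm1 and Rrm2 encode the subunits of ribonucleotide reductase, which makes deoxynucleotides. Rrm1 had a log2 fold change of -0.02 ± 0.07 (SE, edgeR adjusted p = 0.972). Rrm2 had 112, 127 and 111 CPM in Grhl2_cKO, against 118, 133 and 131 CPM in controls, which overlapped (log2 fold change -0.13 ± 0.07 SE, edgeR adjusted p = 0.558). Tyms, the thymidylate synthase gene, had 77.1, 76.2 and 79.0 CPM in Grhl2_cKO, against 72.2, 74.7 and 69.8 CPM in controls. Every Grhl2_cKO library lay above every control, by a small margin, and the difference did not pass (log2 fold change 0.10 ± 0.06 SE, edgeR adjusted p = 0.557).

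Among the genes that govern entry into S phase, the E-type cyclins, which drive the G1/S transition with Cdk2, were among the least abundant of the 32. Ccne2 stood at 6.53 CPM per kilobase, Cdc6 at 6.97 and Ccne1 at 14.3, each a mean of 6 libraries. Ccne1 had 25.7, 29.7 and 25.4 CPM in Grhl2_cKO, against 25.3, 30.9 and 31.0 CPM in controls. Ccne2 had 20.2, 23.0 and 14.7 CPM in Grhl2_cKO, against 19.5, 25.9 and 22.7 CPM in controls, and its low value belonged to Grhl2_cKO replicate 10. Neither passed (edgeR adjusted p = 0.798 for Ccne1 and 0.666 for Ccne2), and the log2 fold change of Ccne2 was between -0.38 and -0.07 over the alternative fits. E2f1, itself an E2F factor, had 66.4, 68.5 and 69.9 CPM in Grhl2_cKO, against 66.3, 65.0 and 71.1 CPM in controls, with the control range enclosing the other (log2 fold change 0.02 ± 0.06 SE, edgeR adjusted p = 0.981). Uhrf1, which keeps DNA methylation in place behind the fork, had 177, 195 and 198 CPM in Grhl2_cKO, against 192, 217 and 217 CPM in controls. It had the lowest adjusted p of the S phase genes, 0.47 (edgeR), with a log2 fold change of -0.14 ± 0.07 (SE).

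None of the mitotic cyclin genes or Cdk1 passed the test, and the B-type cyclins spread differently across libraries. Ccnb1, a cyclin that drives entry into mitosis with Cdk1, had 66.6, 73.2 and 61.8 CPM in Grhl2_cKO, against 59.5, 60.6 and 60.9 CPM in controls. The controls lay within about 1 CPM of their mean of 60.3 (SD 0.762), and each Grhl2_cKO library lay above them (log2 fold change 0.15 ± 0.07 SE, edgeR adjusted p = 0.41). This gene had the lowest p of the 32, but 42.1% of its 50-base words also occur in other transcripts, among them the pseudogene Ccnb1-ps, so its counts are less certain. Ccnb2, the other B-type cyclin, had 101, 101 and 102 CPM in Grhl2_cKO, against 101, 102 and 100.3 CPM in controls. Of the listed genes it varied least: its coefficient of variation was 0.576% within Grhl2_cKO and 0.93% within controls, and none of its words is shared. Ccna2, the cyclin of S phase and G2, had 177, 204 and 174 CPM in Grhl2_cKO, against 156, 178 and 181 CPM in controls, and Cdk1, the kinase that both cyclin types bind, had 189, 202 and 179 CPM in Grhl2_cKO, against 162, 192 and 187 CPM in controls. Both overlapped between genotypes, with the highest value in Grhl2_cKO replicate 5 and the lowest in control replicate 1 (log2 fold changes 0.11 ± 0.08 and 0.07 ± 0.07 SE, edgeR adjusted p = 0.706 and 0.822).

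None of 6 genes of mitotic kinases, their partners and the checkpoint passed the test. Aurka, the kinase of the spindle poles, had 55.9, 57.2 and 49.6 CPM in Grhl2_cKO, against 44.9, 52.0 and 49.2 CPM in controls (log2 fold change 0.15 ± 0.08 SE, edgeR adjusted p = 0.513). Plk1, a kinase that acts from mitotic entry to cytokinesis, had 85.7, 90.9 and 82.1 CPM in Grhl2_cKO, against 75.9, 78.8 and 82.1 CPM in controls, so that the lowest Grhl2_cKO library and the highest control met (log2 fold change 0.13 ± 0.06 SE, edgeR adjusted p = 0.446). Aurkb and Birc5, which encodes survivin, belong to the chromosomal passenger complex that corrects spindle attachments, and had log2 fold changes of 0.07 ± 0.10 and 0.01 ± 0.06 (SE). The spindle checkpoint genes Bub1 and Bub1b had values of 0.09 ± 0.08 and 0.00 ± 0.08 on the same scale. Adjusted p-values of these 4 genes ran from 0.8 to 0.996 (edgeR).

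None of the spindle motor, kinetochore and chromosome genes passed the test. Mki67, the gene of the proliferation antigen Ki-67, had 1070.1, 1118 and 943 CPM in Grhl2_cKO replicates 1, 5 and 10, against 871, 1099 and 1114 CPM in control replicates 1, 3 and 7. The genotypes overlapped almost fully (log2 fold change 0.02 ± 0.11 SE, 95% interval -0.22 to 0.27, edgeR adjusted p = 0.985). Top2a, the topoisomerase that untangles sister chromosomes, had 766, 861 and 717 CPM in Grhl2_cKO, against 624, 791 and 749 CPM in controls (log2 fold change 0.11 ± 0.10 SE, edgeR adjusted p = 0.797). At 144 and 103 CPM per kilobase, Top2a and Mki67 ranked at percentiles 97.5 and 96.1 of all genes tested. Kif11, the motor that pushes spindle poles apart, Kif20a, a motor of cytokinesis, and Cenpe, a motor of the kinetochore, had log2 fold changes of 0.11, 0.09 and 0.08. Kif20a shares 29.3% of its exon bases with Cdc23 on the opposite strand, and no source used here states how strand was treated in counting. Cenpf, a large protein of the kinetochore, spread most among the mitosis genes, with 213, 245 and 168 CPM in Grhl2_cKO, against 166, 223 and 224 CPM in controls (log2 fold change 0.03 ± 0.14 SE, edgeR adjusted p = 0.985).

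Most of the variation lay between libraries of the same genotype, and it was shared by genes of a phase. Control replicate 1 was the lowest library for 15 of the 16 mitosis genes, all but Ccnb2, and Grhl2_cKO replicate 5 was the highest for 14 of 16, all but Ccnb2 and Bub1b. Relative to each gene's mean over the 6 libraries, the median mitosis gene stood at 0.05, 0.17 and -0.05 (log2) in Grhl2_cKO replicates 1, 5 and 10, against -0.19, 0.03 and 0.01 in control replicates 1, 3 and 7. The S phase genes had another order. Grhl2_cKO replicate 1 was lowest for 10 of the 16 and control replicate 3 highest for 11, and the median S phase gene stood at -0.12, 0.01 and 0.04 in Grhl2_cKO, against -0.05, 0.12 and 0.07 in controls.

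**Figure D2:**
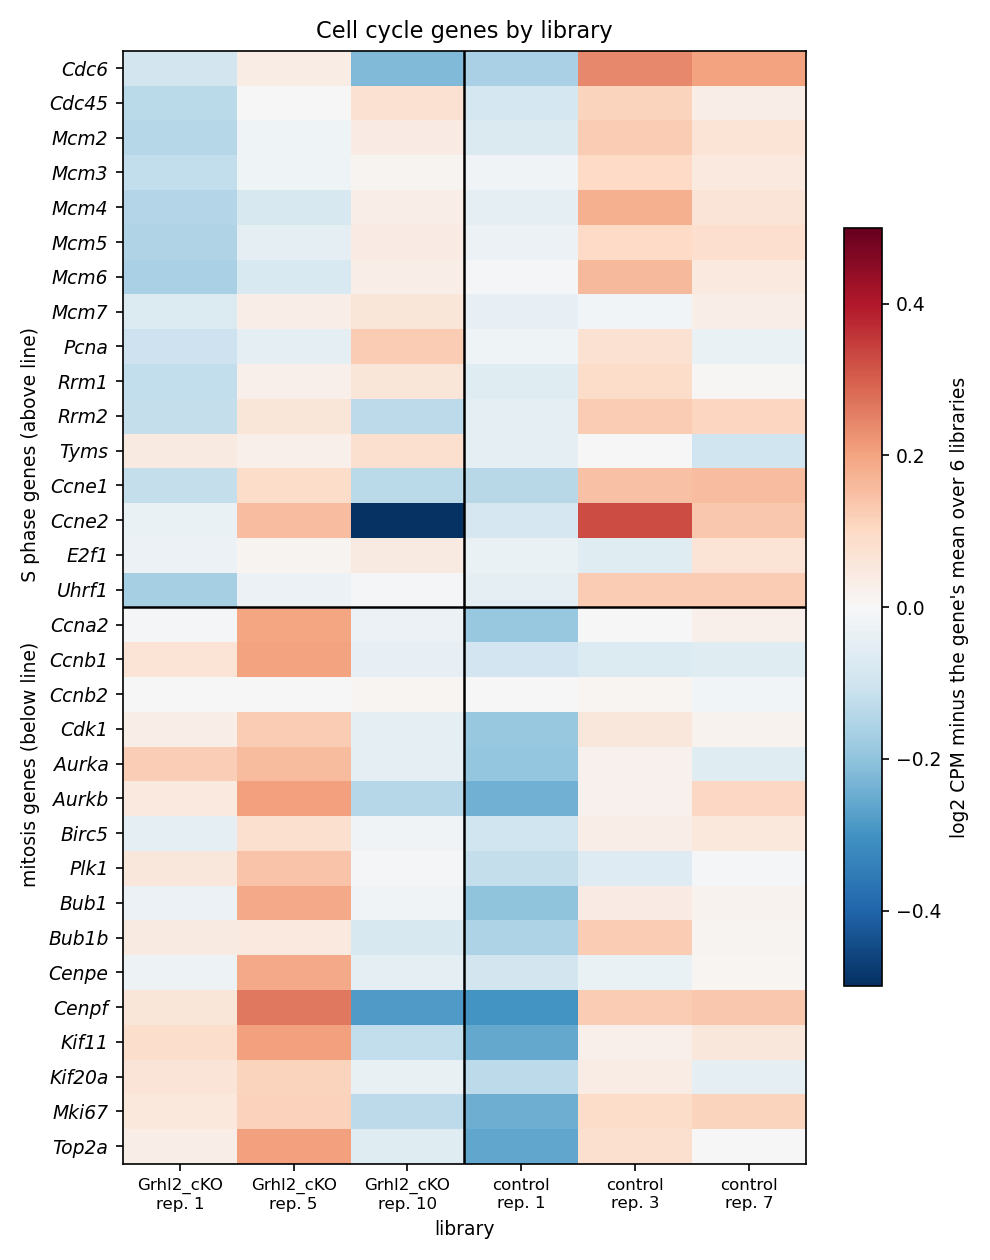
Log2 CPM of each gene minus its mean over the 6 libraries (red higher, blue lower), with Grhl2_cKO libraries left of the vertical line and S phase genes above the horizontal line. Mitosis genes are mostly lowest in control replicate 1 and highest in Grhl2_cKO replicate 5, and the row of Ccnb2 is flat.

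Within the S phase list, Grhl2_cKO replicate 10 was the highest library for 3 genes and the lowest for 3. Ccne2, Cdc6 and Rrm2 were lowest there, at 14.7, 27.9 and 111 CPM, whereas Pcna and Tyms were highest there, at 144 and 79.0 CPM. Control replicate 1, the library with the fewest mitotic transcripts, also held the highest Cdkn1a, the p21 inhibitor gene, at 25.0 CPM, where the other controls had 13.6 and 15.3 CPM. This was not particular to Cdkn1a: the listed inhibitors of the cycle and p53 target genes summed to 2126 CPM in control replicate 1. In the other libraries they summed to 1672 to 1823 CPM. Control replicate 1 had the smallest count total of the 6 libraries, 13472216. Grhl2_cKO replicate 1, lowest for most S phase genes, held the highest heart muscle markers, 201 CPM in sum. The part of these features in the levels of the cell cycle genes was not tested.

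Summed over the 16 S phase genes, the libraries held 2269.9, 2443 and 2522 CPM in Grhl2_cKO replicates 1, 5 and 10, against 2403, 2673 and 2569 CPM in control replicates 1, 3 and 7, or 2412 ± 129 and 2548 ± 136 CPM (SD, n = 3 each). The ranges overlapped, and the difference in means was about the size of the SD within a genotype. The 16 mitosis genes summed to 3705, 4012 and 3389.7 CPM in Grhl2_cKO, against 3114, 3765 and 3724 CPM in controls, or 3702 ± 311 and 3534 ± 364 CPM. Here the difference in means was smaller than either SD. Mki67 (mean 1044 CPM in Grhl2_cKO and 1028 CPM in controls) and Top2a (781 and 721 CPM) weighed most in these sums. The log2 ratio of the mean mitosis sums was 0.07, but 0.01 or 0.13 on leaving out Grhl2_cKO replicate 5 or 10, and -0.01 on leaving out control replicate 1. The ratio of mitosis to S phase sums was 1.63, 1.64 and 1.34 in Grhl2_cKO, against 1.30, 1.41 and 1.45 in controls, with 2 Grhl2_cKO libraries above each control and replicate 10 among the controls.

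**Figure D3:**
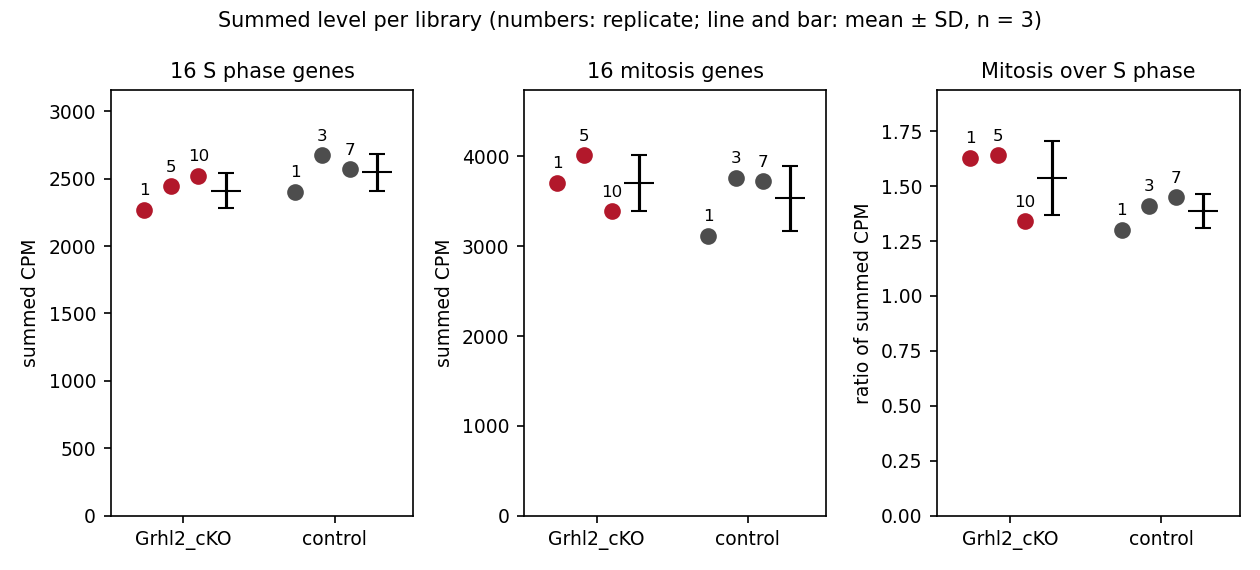
Summed CPM of the 16 S phase genes and of the 16 mitosis genes, and their ratio, per library (points, numbered by replicate) with the mean and SD of each genotype (n = 3). In all 3 panels at least 1 Grhl2_cKO library lies within the control range.

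The spread between libraries was close to that of other genes at such levels by the edgeR estimate and somewhat wider by CPM. The edgeR biological coefficient of variation had a median of 7.29% over the 32 genes, from 5.2% for Ccnb2 to 13.6% for Ccne2, against 8.5% over all genes tested and 7.04% over the tested genes in the same CPM range. Within genotypes, the coefficient of variation of CPM had a median of 7.11% in Grhl2_cKO and 6.98% in controls over the 32 genes, beside 5.63% in Grhl2_cKO and 5.73% in controls over the genes in that range. The mitosis genes spread more, with medians of 8.56% in Grhl2_cKO and 8.31% in controls, than the S phase genes, with 6.65% and 6.24%. The lowest sums of both coefficients after Ccnb2 were those of Tyms, at 1.82% in Grhl2_cKO and 3.38% in controls, and E2f1, at 2.57% in Grhl2_cKO and 4.71% in controls.

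Of 54 further replication genes edgeR called none, beside 3.59% of all genes tested, and DESeq2 and limma-voom called none. At an unadjusted p under 0.05 there were 2 lower and 2 higher, beside 1080 lower and 889 higher of the 14842 genes tested. Of the 54, 36 lay below 0, and the median log2 fold change was -0.04. Leaving out Grhl2_cKO replicate 1 or 5 gave a median of -0.02 or -0.07, and leaving out control replicate 1, 3 or 7 gave -0.09, -0.00 or -0.02. The smallest p belonged to Orc3, a subunit of the origin recognition complex, with 87.1, 97.0 and 90.1 CPM in Grhl2_cKO, against 78.8, 74.5 and 78.7 CPM in controls (log2 fold change 0.24 ± 0.06 SE, edgeR adjusted p = 0.0669; range over the alternatives 0.0489 to 0.252), followed by Pold2, a subunit of DNA polymerase delta (0.17 ± 0.06 SE, edgeR adjusted p = 0.196). Of 63 further mitosis genes edgeR, DESeq2 and limma-voom also called none, beside 3.59% of all genes tested called by edgeR. At an unadjusted p under 0.05, 9 were higher and 0 lower, beside 889 higher and 1080 lower of the 14842 genes tested. Of the 63, 57 lay above 0, with a median of 0.09. The groups did not overlap for 12 of 63 in the higher direction and 1 of 63 in the lower, beside 8.17% and 9.89% of all genes tested. Ube2c, the ubiquitin-conjugating enzyme gene of the anaphase-promoting complex, had 129, 138 and 118 CPM in Grhl2_cKO, against 100.3, 112 and 114 CPM in controls (log2 fold change 0.24 ± 0.07 SE, edgeR adjusted p = 0.129). Bub3, a checkpoint gene, had a log2 fold change of 0.15 ± 0.05 SE (edgeR adjusted p = 0.218). The median of these 63 genes was 0.04 without Grhl2_cKO replicate 5 or without control replicate 1.

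Among the regulators of G1, 3 genes were called. Of 27 G1 cyclins, E2F and pocket protein genes, 1 was called higher and 2 lower in Grhl2_cKO, beside 1.21% higher and 2.38% lower of all genes tested, and the median log2 fold change was -0.00. Ccnd2, a D-type cyclin that answers growth signals, rose to 454, 445 and 419 CPM in Grhl2_cKO, against 342, 309 and 333 CPM in controls (log2 fold change 0.42 ± 0.07 SE, edgeR adjusted p = 0.00703). In 15 of 15 alternatives it was called. Ccnd3, another D-type cyclin, fell to 113, 102 and 113 CPM in Grhl2_cKO, against 154, 128 and 143 CPM in controls (log2 fold change -0.37 ± 0.07 SE, edgeR adjusted p = 0.0233). Mycl, which encodes the transcription factor L-Myc, fell to 44.4, 38.0 and 32.2 CPM in Grhl2_cKO, against 63.4, 51.4 and 56.9 CPM in controls (log2 fold change -0.58 ± 0.12 SE, edgeR adjusted p = 0.025). In the list of 27, groups did not overlap for 4 genes in the higher direction and 2 in the lower, beside 8.17% and 9.89% of all genes tested. Ccnd2, Ccnd3 and Mycl were among these, which adds no support to calls made on the same values. Ccnd3 and Mycl lost their calls in the same 4 fits: on leaving out Grhl2_cKO replicate 5 (adjusted p = 0.098 for Ccnd3 and 0.0868 for Mycl), Grhl2_cKO replicate 10 (0.0674 and 0.0835), control replicate 1 (0.0502 and 0.0537) or control replicate 7 (0.0721 and 0.0605).

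The third D-type cyclin, Ccnd1, had 319, 328 and 354 CPM in Grhl2_cKO, against 261, 274 and 295 CPM in controls. Its groups did not overlap, and it lay close to the threshold (log2 fold change 0.27 ± 0.07 SE, edgeR adjusted p = 0.0638). In 4 of 15 alternatives it was called, and its adjusted p ran from 0.006 to 0.208 over them. Exons of LTO1 on the opposite strand cover 23.4% of its exon bases, and 21.7% of the words of Ccnd3 also occur in Bysl or the pseudogene Ccnd3-ps, so both counts are less certain. Myc had a log2 fold change of 0.24 ± 0.16 (SE) and Mycn stood at 99.8% of control (edgeR adjusted p = 0.663 and 0.999). Ccnd2 and Ccnd1 were expressed at 66.5 and 80.4 CPM per kilobase, Ccnd3 at 55.6 and Mycl at 13.6.

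Of 27 inhibitors of the cycle and p53 target genes 25 were tested, and edgeR, DESeq2 and limma-voom called none. With 3.59% of all genes tested called, 0 of 25 lies near the background share. At an unadjusted p under 0.05 there were 2 lower and 1 higher, beside 1080 lower and 889 higher of the 14842 genes tested. The median was 96.2% of control. Cdkn1c, the inhibitor p57, was the most abundant at 186 CPM per kilobase and had 348, 331 and 362 CPM in Grhl2_cKO, against 413, 333 and 383 CPM in controls (log2 fold change -0.12 ± 0.08 SE, edgeR adjusted p = 0.687). Cdkn1a had 14.1, 12.6 and 17.3 CPM in Grhl2_cKO, against 25.0, 15.3 and 13.6 CPM in controls, and its log2 fold change of -0.28 ± 0.21 (SE, edgeR adjusted p = 0.728) was 0.03 without control replicate 1. Cdkn1b, the inhibitor p27, had a log2 fold change of 0.01 ± 0.08 (SE, edgeR adjusted p = 0.989). The smallest p-values of the list belonged to Perp, a p53 target that also serves in desmosomes (-0.38 ± 0.12 SE on the log2 scale, edgeR adjusted p = 0.157), and Btg1 (-0.21 ± 0.07 SE, edgeR adjusted p = 0.19).

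**Figure D4:**
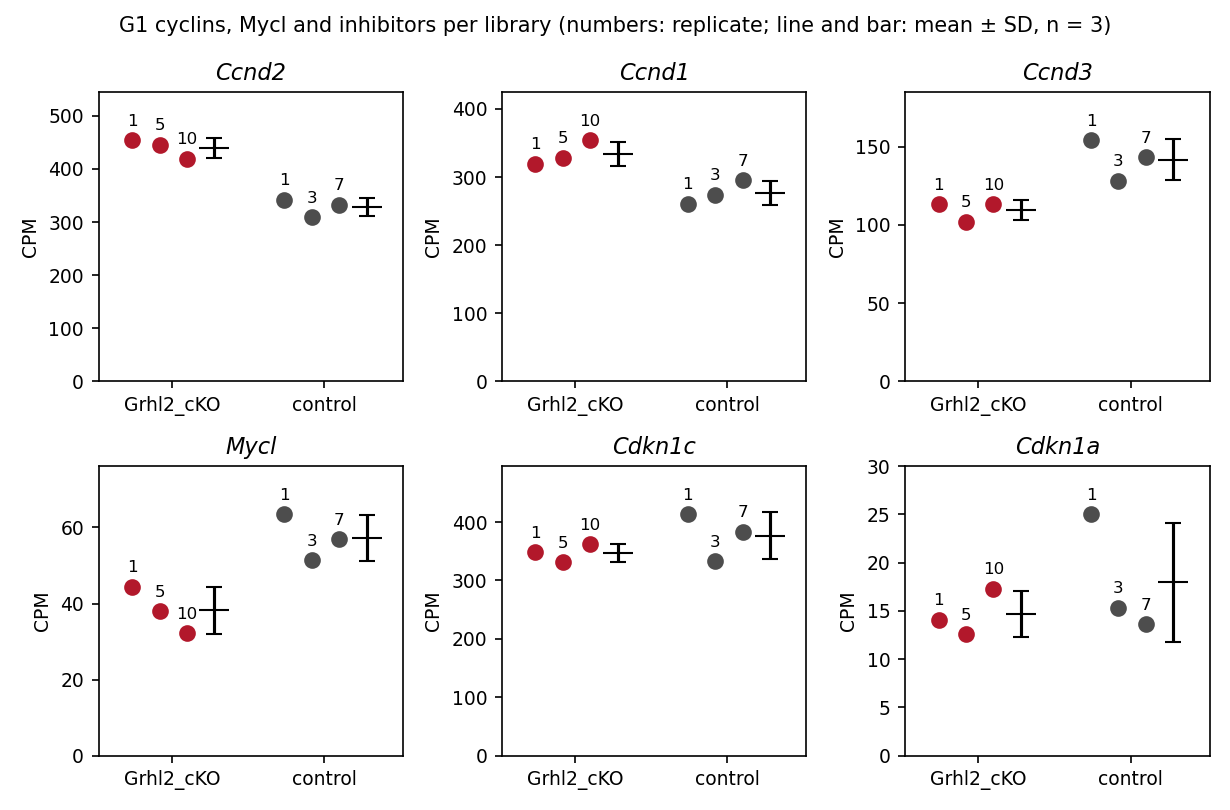
CPM of 3 D-type cyclin genes, Mycl and the inhibitor genes Cdkn1c and Cdkn1a in each library (points, numbered by replicate) with the mean and SD of each genotype (n = 3). Ccnd2 lies higher and Ccnd3 and Mycl lower in each Grhl2_cKO library than in each control, and the high Cdkn1a value is control replicate 1.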

How the data were processed

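Poly-A RNA of 6 libraries was measured by stranded RNA-seq. The deposited table holds raw counts by Entrez gene, with gene lengths, and was made with featureCounts on the mm10 build, per the submitters' processing notes, which also name bcl2fastq 2.17.1.14, edgeR 3.16.5 and limma 3.30.12. Neither aligner nor strand setting is stated in the sources used here. No column was left unused, and 25275 of 27179 identifiers (92.99%) matched a RefSeq symbol (GRCm38.p6, the same assembly as mm10). Hbb-bt was not analysed here. The values of 1 marker gene are not reported here.

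The counts were tested with edgeR 4.0.16 in R 4.3.3: filterByExpr by group (minimum count 10, minimum total 15), TMM factors (0.981 to 1.009), estimateDisp, glmQLFit, glmQLFTest, no covariate, Benjamini-Hochberg adjustment over 14842 genes, threshold 0.05. Standard errors are absolute log2 fold changes divided by the root of the F statistic, and 95% intervals use the fit's total degrees of freedom. The common biological coefficient of variation was 9.52%. Replicate libraries differed by more than counting noise (over all genes, 7.72 to 12.9 in chi-square per degree of freedom). Over the 32 members, whose counts are high, chi-square per gene was 12.2 to 44.0 between Grhl2_cKO libraries and 3.25 to 43.8 between controls, lowest for control replicates 3 and 7. The scripts were tested on simulated data with known fold changes.

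The members, lists and named genes were chosen with earlier results of these data known. Named genes are Grhl2, all 32 members (values in every library for the 8 with the smallest p, Mki67, Top2a, Ccnb1, Cdk1, Mcm2, Pcna, Ccne1 and E2f1, and for others chosen after their values were seen), the called genes of each companion list (at most 4, or the 2 with the smallest p), and Cdkn1a, Cdkn1b, Cdkn1c, Ccnd1, Ccnd2, Myc and Mycn. Shared words of 50 bases and exon overlaps came from GENCODE M21. Alternatives were scaling by total counts, by upper quartiles or by RLE, keeping each gene with at least 1 count, a filter of 1 CPM in 3 libraries, robust quasi-likelihood, sex as a covariate, limma-voom (limma 3.58.1), DESeq2 1.42.0 and leaving out each library.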

Additional observations from a re-analysis of the deposited data

How the results depend on the processing

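None of the 32 genes was called in any of 15 alternatives (0 of 480 results, lowest adjusted p 0.152). The S phase median stayed below 0 and the mitosis median above 0 in 15 of 15. Of the 32 genes 11 changed sign in some alternative, and the cause was not tested: Pcna with upper-quartile scaling (0.00) and Ccnb2 with total-count scaling (-0.00), and the others on leaving out a library. Mycn also changed sign, with RLE, upper-quartile scaling, sex as a covariate and DESeq2 (0.01 each) and without a filter (0.00).

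On leaving out each library in turn, log2 fold changes ran from -0.08 to 0.02 for Cdc45, -0.01 to 0.05 for Mcm7, -0.08 to 0.03 for Pcna, -0.06 to 0.03 for Rrm1, -0.01 to 0.06 for E2f1, -0.01 to 0.01 for Ccnb2, -0.01 to 0.16 for Aurkb, -0.03 to 0.04 for Birc5, -0.06 to 0.07 for Bub1b, -0.10 to 0.17 for Cenpf, -0.08 to 0.09 for Mki67, -0.45 to 0.03 for Cdkn1a, -0.06 to 0.11 for Cdkn1b and -0.12 to 0.14 for Mycn. Medians ran from -0.13 to -0.05 for S phase and 0.02 to 0.14 for mitosis, and log2 ratios of the summed CPM from -0.11 to -0.04 and -0.01 to 0.13. Over the same fits 165 to 336 genes were called lower and 77 to 221 higher, 1 to 3 of the G1 list and 0 to 1 of the further mitosis genes. With upper-quartile scaling 1 further replication gene, Orc3, was called. With 3 libraries per genotype, small differences could not be detected. The intervals given are not adjusted for the number of genes tested, so they do not mark the limit of detection. In the main fit the log2 interval of Orc3, 0.10 to 0.38, lay above 0 and the gene was not called (edgeR adjusted p = 0.0669). No paired analysis was made. The sample descriptions do not say that an equal replicate number marks a pair, and the genotypes share 1 such number only.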
